A study of Mus musculus with 180 samples.

Results

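MAPK signalling is held in check by proteins that its own activity induces, and 8 genes for such feedback inhibitors were followed: Dusp1, Dusp4, Dusp5, Dusp6, Spry2, Spry4, Spred1 and Errfi1. They were taken by name from a table of counts for 54429 genes, and all 8 were present. Each passed the filter on low counts in all 6 library types, and the lowest count of any of them in any library was 66, for Spry4 in membrane Camk2a libraries. The rule that picks them goes by the genes' known roles.

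In the ERK branch of MAPK signalling, growth factor receptors and synaptic activity load Ras with GTP, Ras engages Raf, Raf activates MEK, and MEK phosphorylates ERK on a threonine and a tyrosine. Phosphorylated ERK enters the nucleus and switches on immediate early genes, and in the hippocampus it is required for contextual fear memory. Dual-specificity phosphatases (Dusp) remove both phosphates from MAP kinases, Sprouty and Spred proteins damp the steps from receptor to Raf, and Errfi1 binds and inhibits the EGF receptor kinase. Several of these genes are themselves induced by ERK, which closes the loop.

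RNA was measured in male mice from a cross of a B6.Cg line with the transgene Tg(Camk2a-cre)T29-1Stl and a B6N.129 line with the allele Rpl22tm1.1Psam, in which Cre under the Camk2a promoter, active mainly in forebrain excitatory neurons, puts an HA tag on the ribosomal protein Rpl22. All 4 groups carry both alleles. NoCFC Sleep (8 mice) and NoCFC SD (7) were not fear conditioned, CFC Sleep (8) and CFC SD (7) had contextual fear conditioning, Sleep mice slept freely and SD mice were deprived of sleep; ages and the length of deprivation are not given in the sources used here. The labels give the tissue as brain and the series title as hippocampus. Each title number from 1 to 30 appears in 6 libraries, which were taken as those of 1 mouse: the supernatant (cytosolic) and the pellet (membrane) fraction, each as Input, as the anti-HA capture (Camk2a) and as the capture of ribosomes with phosphorylated S6 (pS6), a mark of recent activity. The pS6 capture uses no transgene, so any cell type with phosphorylated S6 can enter it. The question is how training and sleep loss change the transcripts on each ribosome pool.

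Total counts were 12 to 27 M (mega-counts) per library over 180 libraries. Although every library is labelled as neuron, the Input holds glial RNA: the summed CPM (counts scaled to library size) of 5 oligodendrocyte markers was 4643 to 6699.9 in membrane Input, and no marker list had a gene at 0. The Camk2a capture was high in excitatory and low in inhibitory markers, with sums of 5342 to 6539 against 97.5 to 181 CPM in the cytosolic fraction. Cytosolic Input had 2544 to 4368 against 555 to 693 CPM. The membrane Camk2a capture was less clean, with inhibitory sums of 420 to 817 and oligodendrocyte sums of 1167 to 2923 CPM. Because fewer cells of a type and less RNA per cell cannot be told apart in such samples, a level here is that of a captured pool. There were 9 libraries whose correlation with their own type lay more than 0.005 below the type's median: CFC SD numbers 19 and 22 in cytosolic pS6, CFC Sleep 12 and CFC SD 19 in membrane pS6, CFC SD 22 in membrane Camk2a, NoCFC Sleep 6 in cytosolic Input, and CFC Sleep 16, CFC SD 22 and CFC SD 30 in membrane Input. Results that change without them are given with both values. Title numbers 1 to 11 are all NoCFC, 12 to 22 all CFC, and 23 to 30 hold 2 mice of each group; whether the runs are batches is not stated.

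The genes lie on 8 different chromosomes. In GENCODE vM21 on GRCm38 the spans of 7 of them, all but Spry4, are chr17:26505590-26562128 for Dusp1 (minus strand), chr8:34807297-34819894 for Dusp4 (plus), chr19:53529109-53542431 for Dusp5 (plus), chr10:99263231-99267489 for Dusp6 (plus), chr4:150853919-150868892 for Errfi1 (plus), chr14:105891947-105896819 for Spry2 (minus) and chr2:117121374-117182279 for Spred1 (plus). All 8 are protein coding. Exons of Dusp5 overlap an antisense gene over 547 of 2473 bases and those of Dusp1 overlap Ergic1, on the other strand, over 11 of 3311 bases; the strand used in counting is not given, so counts of Dusp5 could include antisense reads.

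Promoter sequence was read for 6 of the genes, in 7 RefSeq windows on GRCm38.p6 that run from 250 bases before a start site to 50 after it. The stretches below are those of Dusp1, Dusp5 and Errfi1, whose windows hold letters of known activity-dependent elements, and part of the Dusp6 window, which holds none of those searched. Whether these letters go with a gene's response was not tested. Capitals mark matches to the cyclic AMP response element TGACGTCA, to its short form TGACG on either strand, and to the CArG element of serum response factor.
Dusp1, chr17:26508588-26508683, minus strand: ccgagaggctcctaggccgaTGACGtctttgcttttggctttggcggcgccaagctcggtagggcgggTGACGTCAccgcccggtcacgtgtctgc
Dusp5, chr19:53529043-53529114, plus strand: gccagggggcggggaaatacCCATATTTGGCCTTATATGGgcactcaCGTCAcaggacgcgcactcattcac
Errfi1, chr4:150854999-150855046, plus strand: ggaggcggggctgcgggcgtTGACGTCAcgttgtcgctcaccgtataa
Dusp6, chr10:99263081-99263230, plus strand: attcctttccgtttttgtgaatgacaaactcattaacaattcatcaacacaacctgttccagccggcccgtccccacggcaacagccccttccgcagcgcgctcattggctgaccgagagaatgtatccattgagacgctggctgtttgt
The complete element starts 143 bases before the start site in Dusp1 and 51 bases before it in the second of the Errfi1 windows; short forms overlap it, and Dusp1 has one more starting 191 bases before its start. Dusp5 has CArG elements starting 82 and 72 bases before its start and a short form starting 55 bases before it. The windows of Spry2 and Spred1 and the first window of Errfi1 held no match on either strand to these or to AP-1 TGANTCA, EGR GCGTGGGCG or ETS CCGGAAG. Among 32851 windows of all genes, 1.79% held the complete element, 20.81% the short form, 1.63% a CArG element, 7.81% the AP-1, 0.61% the EGR and 8.86% the ETS letters. A match describes letters in these windows and no more.

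Levels differed widely among the inhibitors. Per kb of exon, in the cytosolic pS6 capture (mean ± SD, n = 30), Dusp6 was highest at 51.8 ± 5.85 CPM per kb. Spred1 at 34.7 ± 6.31 and Dusp5 at 32.6 ± 6.52 CPM per kb followed and did not differ beyond their spread. Errfi1 stood at 20.1 ± 4.04 CPM per kb. Dusp4 at 13.8 ± 2.39, Spry2 at 13.1 ± 2.45 and Dusp1 at 12.3 ± 3.77 CPM per kb overlapped, and Spry4 was lowest at 3.49 ± 1.25. The mean of 7 of the 8 genes was highest in this library type; Spry4 was highest in cytosolic Input, at 4.37 ± 0.77 CPM per kb. The lowest mean was in membrane Input for all Dusp genes and Errfi1 and in membrane Camk2a for Spry2, Spry4 and Spred1.

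**Figure D1:**
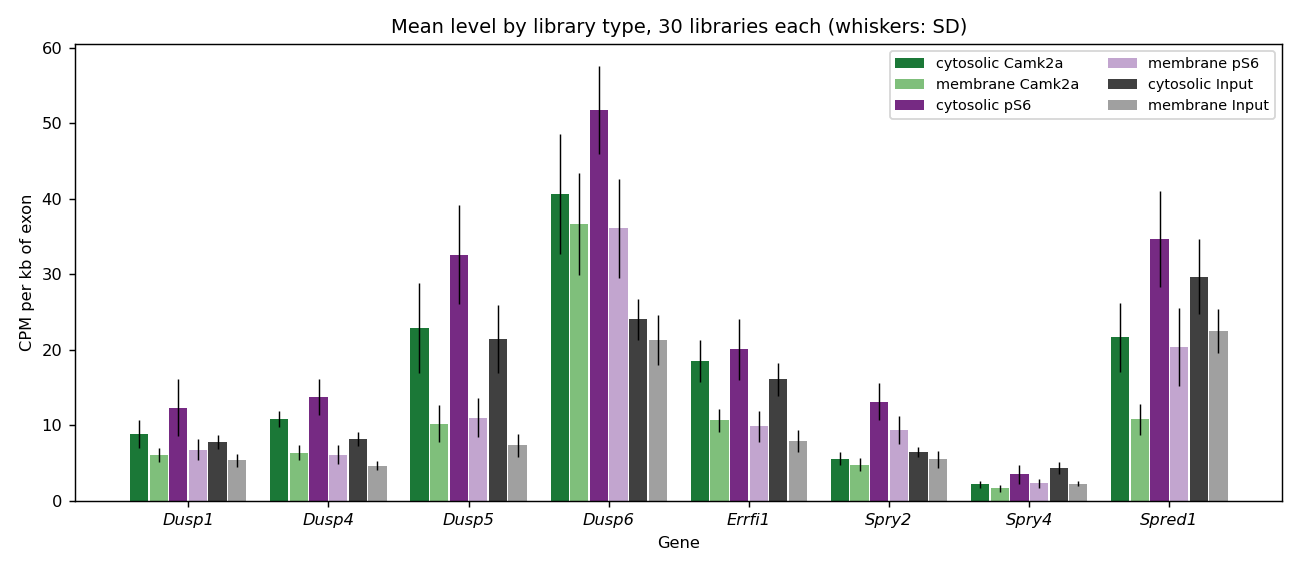
Mean CPM per kb of exon (y axis) of the 8 genes (x axis) in the 6 library types (colours), 30 libraries each, with SD whiskers. Dusp6 is highest in the cytosolic pS6 capture at 51.8 CPM per kb and Spry4 is lowest throughout; cytosolic bars stand above the membrane bars of the same capture.

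With sleep deprivation most of the inhibitors rose on the captured ribosomes, the most in the cytosolic pS6 capture. There 7 of the 8 rose (all but Dusp6), with a median log2 fold change of 0.42 against 0.0033 over all 16485 genes tested, of which 4.6% rose (edgeR quasi-likelihood test, adjusted p at most 0.05). In membrane pS6 5 rose, where 1.11% of all genes did. In the Camk2a capture 5 rose and Spry2 fell in the cytosolic fraction (4.13% of all genes rose and 2.15% fell), and 4 rose in the membrane fraction (2.16%). In Input 5 rose in the cytosolic fraction (2.04%) and 2 in the membrane fraction (1.05%). The library types come from the same mice, so these 6 counts are not independent. Dusp5 and Errfi1 rose in all 6 types. Whether the groups overlap is described below gene by gene. How many of all genes have groups that do not overlap was not counted.

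**Figure D2:**
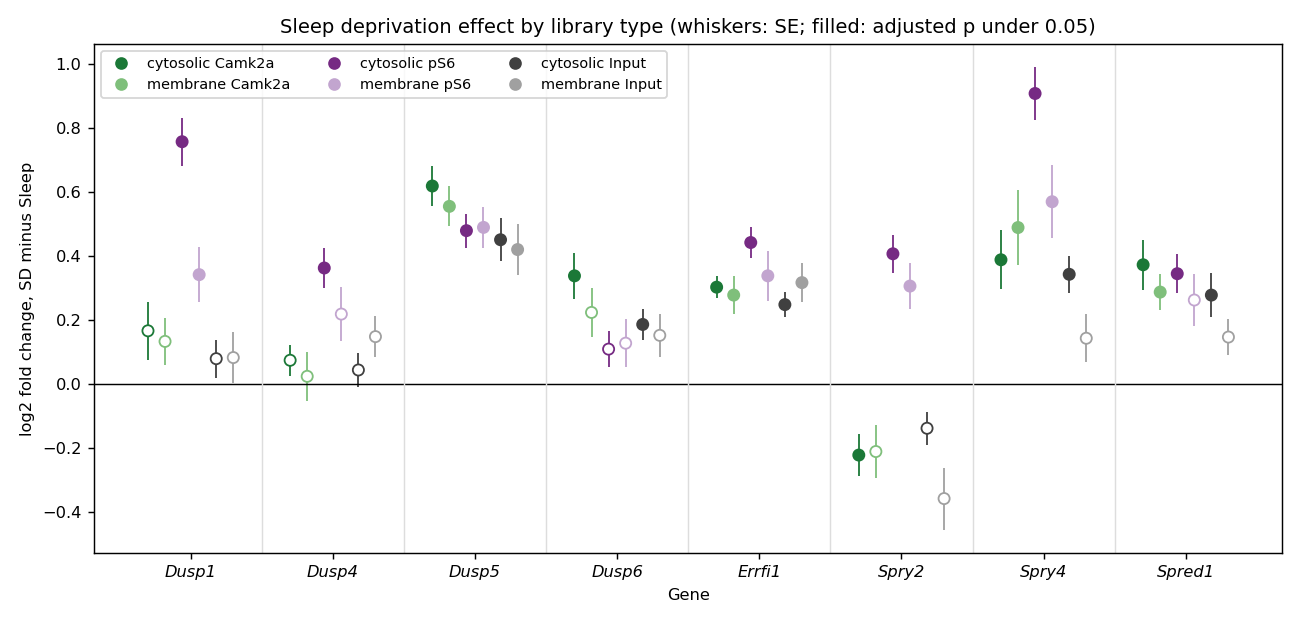
Log2 fold change of SD over Sleep mice, averaged over training (y axis, SE whiskers), for each gene (x axis) in the 6 library types (colours); filled points passed at an adjusted p under 0.05. Dusp5 and Errfi1 are filled in every type, Dusp1 and Spry4 peak in cytosolic pS6 at 0.76 and 0.91, and Spry2 lies above 0 in pS6 and below 0 elsewhere.

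Dusp1, a nuclear phosphatase that acts on p38, JNK and ERK, rose in both pS6 fractions. In cytosolic pS6 the lowest, median and highest NoCFC Sleep mice had 24.9, 29.1 and 45.9 CPM, against 43.2, 56.2 and 67.1 CPM in NoCFC SD. CFC Sleep mice had 25.7, 31.7 and 38.1 CPM and CFC SD mice 44.8, 47.1 and 55.1 CPM. All 14 SD mice lay above the Sleep median of their arm; the groups did not overlap with training, and without it only through 1 Sleep mouse, number 1, at 45.9 CPM. The log2 fold change was 0.76 ± 0.075 (SE, edgeR adjusted p = 6.79e-09), and in membrane pS6 it was 0.34 ± 0.086 (adjusted p = 0.0272). Elsewhere Dusp1 did not pass, at 0.17 ± 0.091 in cytosolic and 0.13 ± 0.074 in membrane Camk2a and 0.079 ± 0.059 and 0.083 ± 0.080 in the Inputs.

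Dusp4, a related nuclear phosphatase, rose in cytosolic pS6 alone, by 0.36 ± 0.061 (adjusted p = 0.000103). There it was at 23.9, 32.9 and 40.4 CPM in NoCFC Sleep and at 34.3, 41.2 and 45.5 CPM in NoCFC SD, which overlapped. With training the groups were apart, at 30.5, 35.7 and 39.01 CPM in Sleep and 40.6, 44.4 and 48.97 CPM in SD. In the other types its log2 fold change ran from 0.024 in membrane Camk2a to 0.22 in membrane pS6, where the adjusted p was 0.209.

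Dusp5, a nuclear phosphatase selective for ERK, rose in every library type, and its largest change was in cytosolic Camk2a at 0.62 ± 0.063 (adjusted p = 3.87e-08). Its values there were 31.03, 40.9 and 50.03 CPM in NoCFC Sleep and 49.9, 66.7 and 74.2 CPM in NoCFC SD. CFC Sleep mice were at 42.4, 47.7 and 65.5 CPM and CFC SD mice at 60.3, 75.8 and 81.8 CPM. The groups overlapped at their ends in each arm, and all 14 SD mice were above the Sleep median. In cytosolic pS6 both arms were apart: Sleep mice ended at 71.3 CPM without and 84.1 CPM with training, and SD mice began at 72.1 and 86.7 CPM. The log2 fold changes of the other types were 0.56 ± 0.063 in membrane Camk2a, 0.48 ± 0.053 and 0.49 ± 0.065 in cytosolic and membrane pS6, and 0.45 ± 0.068 and 0.42 ± 0.079 in the Inputs. No difference in this change between captures or fractions passed its test.

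Dusp6, the cytoplasmic ERK phosphatase and the most abundant of the genes per kb, had another pattern. It rose in cytosolic Camk2a by 0.34 ± 0.073 (adjusted p = 0.00262) and in cytosolic Input by 0.19 ± 0.049 (adjusted p = 0.0262). In cytosolic Camk2a it was at 90.7, 113 and 124 CPM in NoCFC Sleep, 104, 138 and 152 CPM in NoCFC SD, 97.7, 113 and 159 CPM in CFC Sleep and 116, 148 and 187 CPM in CFC SD, with overlap in both arms. In cytosolic pS6, where the other 7 genes rose, the log2 fold change of Dusp6 was 0.11 ± 0.057 (95% interval -0.0035 to 0.22, adjusted p = 0.278), and 9 of 14 SD mice were above the Sleep median. The difference between its changes in the pS6 and Camk2a captures was -0.23 ± 0.097 (adjusted p = 0.46); with the title number as a block it was -0.23 with an adjusted p of 0.0244.

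**Figure D3:**
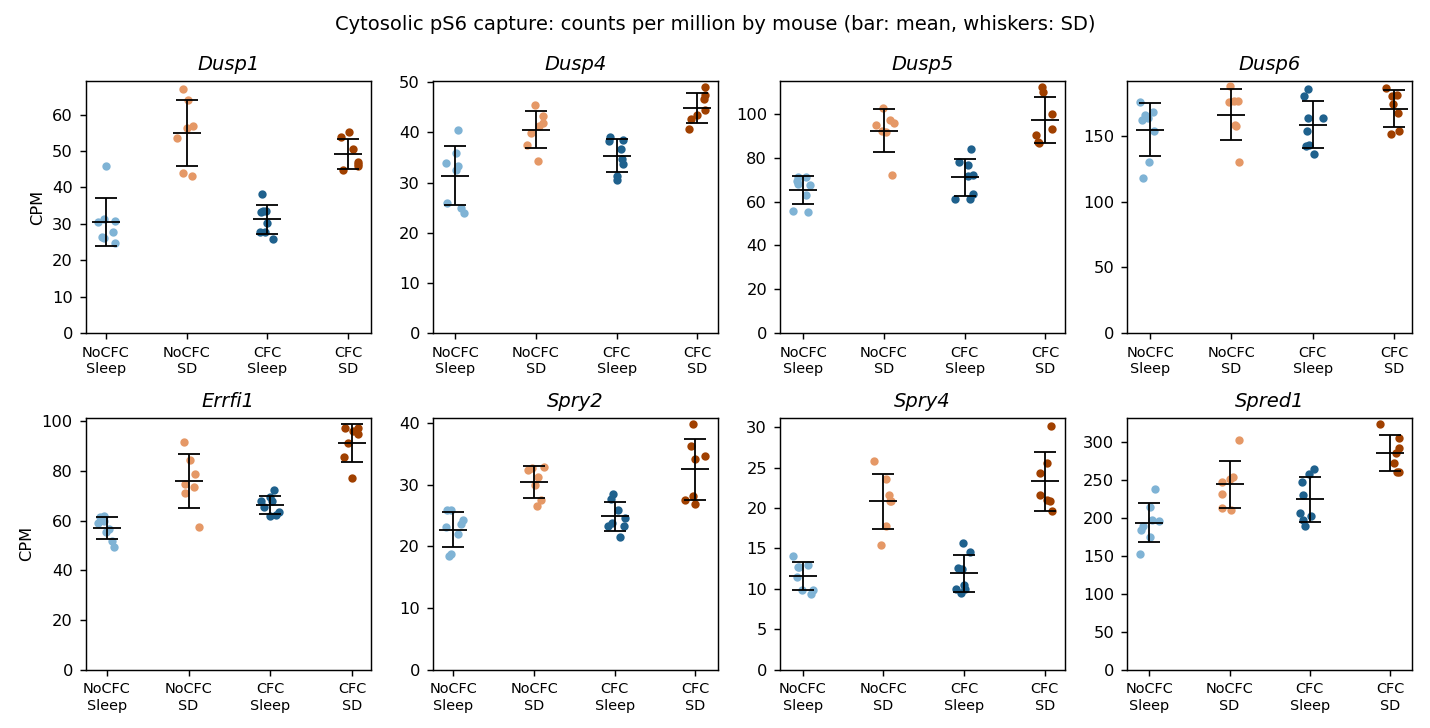
CPM in the cytosolic pS6 capture (y axis) of each mouse by group (x axis), with mean and SD. Dusp5 and Spry4 do not overlap between Sleep and SD in either training arm, and Dusp6 overlaps in both. The share of all genes without such overlap was not counted.

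Spry2, an adaptor that interferes with receptor signalling to Ras, moved in opposite directions. In the pS6 capture it rose, by 0.41 ± 0.060 in the cytosolic (adjusted p = 1.17e-05) and 0.31 ± 0.072 in the membrane fraction (adjusted p = 0.0159). In cytosolic Camk2a it fell, with a log2 fold change of -0.22 ± 0.066 (adjusted p = 0.0358), a call lost without the filter on low counts (adjusted p = 0.0674). Cytosolic pS6 values were 18.4, 23.4 and 25.9 CPM in NoCFC Sleep and 26.6, 31.2 and 32.9 CPM in NoCFC SD, which were apart. CFC Sleep mice had 21.6, 24.2 and 28.5 CPM and CFC SD mice 26.96, 34.1 and 39.8 CPM, which overlapped. In cytosolic Camk2a 12 of 14 SD mice were below the Sleep median of their arm, with 9.78, 11.8 and 14.5 CPM in CFC Sleep and 8.71, 9.89 and 11.8 CPM in CFC SD. NoCFC Sleep mice there had 10.8, 11.998 and 15.7 CPM and NoCFC SD mice 9.80, 11.6 and 12.6 CPM. In membrane Input all 14 SD mice were below the Sleep median, and the log2 fold change was -0.36 ± 0.097 (adjusted p = 0.052). Without numbers 16, 22 and 30 it was -0.29 with an adjusted p of 0.00345, and under DESeq2 it was -0.36 with an adjusted p of 0.0277. Membrane Camk2a and cytosolic Input gave -0.21 ± 0.083 and -0.14 ± 0.052, which did not pass.

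Spry4, a relative of Spry2 that also limits Ras and Raf activation, had the largest change of the 8 genes, in cytosolic pS6 at 0.91 ± 0.082 (adjusted p = 7.08e-10). NoCFC Sleep mice had 9.42, 12.1 and 14.1 CPM and NoCFC SD mice 15.4, 20.9 and 25.8 CPM. CFC Sleep mice had 9.50, 11.5 and 15.7 CPM and CFC SD mice 19.6, 21.6 and 30.1 CPM, so that neither arm overlapped. It also rose in membrane pS6 (0.57 ± 0.11), cytosolic and membrane Camk2a (0.39 ± 0.092 and 0.49 ± 0.12) and cytosolic Input (0.34 ± 0.057). In membrane Input it was 0.14 ± 0.075 and did not pass.

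Spred1, which recruits the Ras inactivator neurofibromin to the membrane, rose by similar amounts in the cytosolic libraries: 0.37 ± 0.077 in Camk2a, 0.34 ± 0.060 in pS6 and 0.28 ± 0.068 in Input. The last was lost without the filter on low counts (adjusted p = 0.0512). Cytosolic pS6 values were 153, 193 and 239 CPM in NoCFC Sleep and 211, 248 and 304 CPM in NoCFC SD, then 189, 219 and 265 CPM in CFC Sleep and 260.3, 286 and 324 CPM in CFC SD. All 14 SD mice were above the Sleep median although both arms overlapped. In the membrane fraction it rose in Camk2a, by 0.29 ± 0.057. In membrane pS6 its log2 fold change was 0.26 ± 0.080 (adjusted p = 0.0868), which passed without CFC Sleep 12 and CFC SD 19 (0.29, adjusted p = 0.0221), with the run of title numbers as a term (0.26, 0.0329) and under DESeq2 (0.26, 0.0436). Membrane Input gave 0.15 ± 0.055 and did not pass.

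Errfi1, the EGF receptor inhibitor, rose in all 6 types, from 0.25 ± 0.039 in cytosolic Input to 0.44 ± 0.050 in cytosolic pS6 (adjusted p = 7.2e-08). In cytosolic Camk2a the fold change was 0.30 ± 0.035 (adjusted p = 4.63e-07), with 53.3, 55.6 and 60.98 CPM in NoCFC Sleep and 58.6, 65.3 and 73.4 CPM in NoCFC SD. CFC Sleep mice had 60.3, 61.8 and 70.2 CPM and CFC SD mice 75.4, 81.8 and 87.8 CPM. The trained groups were apart and the untrained ones overlapped at 58.6 to 61.0 CPM. Its membrane values were 0.28 ± 0.058 in Camk2a, 0.34 ± 0.079 in pS6 and 0.32 ± 0.061 in Input.

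Whether the effect of sleep deprivation differed between the ribosome pools was tested directly, as the difference of its effect between captures. The main fits took the libraries of a mouse as independent, although libraries of the same title number correlate. Fits with the title number as a block were the alternative. Between cytosolic pS6 and Input, 4 of the 8 genes had a more positive change in pS6, where 0.508% of all genes did: Dusp1 by 0.67 ± 0.098 (adjusted p = 9.07e-06), Spry4 by 0.56 ± 0.10 (0.000665), Spry2 by 0.54 ± 0.079 (1.01e-05) and Dusp4 by 0.31 ± 0.083 (0.0488). The call for Dusp4 was lost under another scaling, without the filter and without the libraries that stand apart (adjusted p from 0.0568 to 0.073). For Errfi1 the difference was 0.19 ± 0.064 (adjusted p = 0.229), and with the title number as a block 0.18 with an adjusted p of 0.0379. Over all genes the block fit called 388 of 17112, against 115 in the main fit, both directions together.

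Between cytosolic pS6 and Camk2a, 3 genes differed where 0.365% of all genes did so upward. Spry2 differed by 0.63 ± 0.090 (adjusted p = 2.27e-05), Dusp1 by 0.59 ± 0.12 (0.00633) and Spry4 by 0.52 ± 0.13 (0.026). With the title number as a block 5 genes passed, since Dusp4 at 0.29 (adjusted p = 0.00835) and Dusp6 at -0.23 joined them. That fit called more genes of all kinds, 392 of 16730 against 98 in the main fit, both directions together. In the membrane fraction Spry2 was the one gene of the 8 to differ, by 0.66 ± 0.12 between pS6 and Input (adjusted p = 0.0024, with 0.0994% of all genes higher) and by 0.53 ± 0.11 between pS6 and Camk2a (0.0159, with 0.053% higher). Between Camk2a and Input no inhibitor passed in either fraction. At an unadjusted p under 0.05 there were 0 of 8 in the cytosolic fraction, against 484 of 16421 genes. In the membrane fraction there was 1 of 8, against 479 of 16128 genes.

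**Figure D4:**
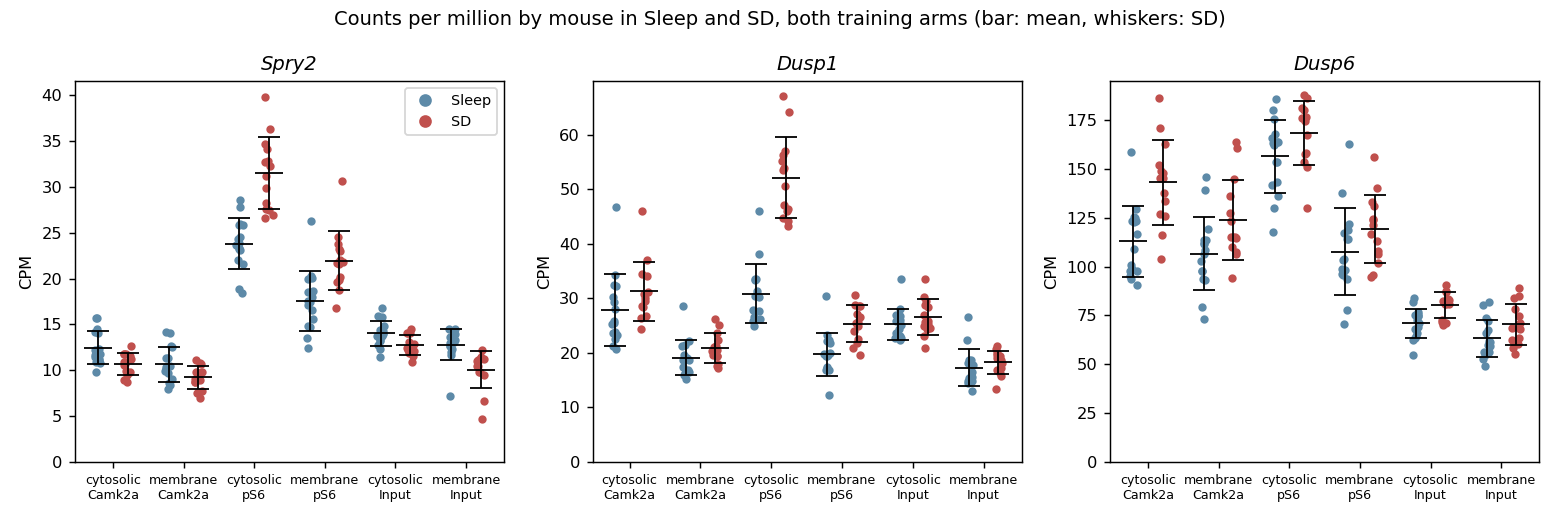
CPM of Spry2, Dusp1 and Dusp6 (y axis) in each mouse by library type (x axis), Sleep in blue and SD in red with both training arms together, with mean and SD. Spry2 is higher in SD mice in the pS6 types and lower in the others, Dusp1 separates mainly in cytosolic pS6, and Dusp6 in cytosolic Camk2a.

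Markers of other cells moved with sleep deprivation in the pS6 capture. All 7 inhibitory markers rose in cytosolic pS6, with summed levels of 571 to 775 CPM in Sleep and 760.0 to 1010.5 CPM in SD mice, and 4 of 7 rose in membrane pS6, with 1153 to 1678 CPM in Sleep and 1584.5 to 2241 CPM in SD mice. Of 5 astrocyte markers 1 rose in cytosolic pS6, where the sums were 71.7 to 314 CPM in Sleep and 109.6 to 495 CPM in SD mice, and none rose in membrane pS6. Of 5 excitatory markers 1 fell in cytosolic and 2 fell in membrane pS6, and 1 of 5 endothelial markers fell in membrane pS6. No oligodendrocyte, precursor or microglial marker passed in either. For comparison, the cytosolic pS6 test called 4.6% of its genes upward and 3.28% downward. The membrane pS6 test called 1.11% upward and 0.619% downward. A count of 1 of 5 in the cytosolic fraction says little beside its shares. In cytosolic Camk2a none of the 7 inhibitory, 5 astrocyte or 5 excitatory markers passed. Their part in the changes of the feedback inhibitors in pS6 was not tested. Leaving out the 2 libraries that stand apart in cytosolic pS6 is a separate setting and no test of these markers. The changes there were then 0.94 for Spry4, 0.77 for Dusp1, 0.49 for Dusp5 and 0.45 for Errfi1. Spry2 was at 0.39, Spred1 at 0.37, Dusp4 at 0.36 and Dusp6, which did not pass, at 0.098.

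The effect of sleep deprivation did not pass a difference between fractions for any of the 8 genes or any gene at all. At an unadjusted p under 0.05, 391 of 15779 genes differed in Camk2a, 842 of 17855 in pS6 and 554 of 16529 in Input, and DESeq2 also called 0 in each. The largest such value was that of Dusp1 in pS6, -0.41 ± 0.11 for membrane minus cytosolic (adjusted p = 0.846, and 0.0581 with the title number as a block).

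Within the runs of title numbers the direction was repeated for most genes. In cytosolic pS6 the difference of mean log2 CPM between SD and Sleep was 0.93, 0.66 and 0.67 for Dusp1 in numbers 1 to 11, 12 to 22 and 23 to 30. For Spry4 the same differences were 0.74, 0.94 and 1.04, and for Spry2 they were 0.34, 0.32 and 0.58. In cytosolic Camk2a Spry2 was at -0.20, -0.24 and -0.19, and Dusp5 at 0.63, 0.49 and 0.81. Dusp6 in cytosolic pS6 was at 0.13, 0.16 and -0.0088, and Dusp4 in cytosolic Camk2a at 0.12, 0.11 and -0.023, both genes that did not pass in those types.

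**Figure D5:**
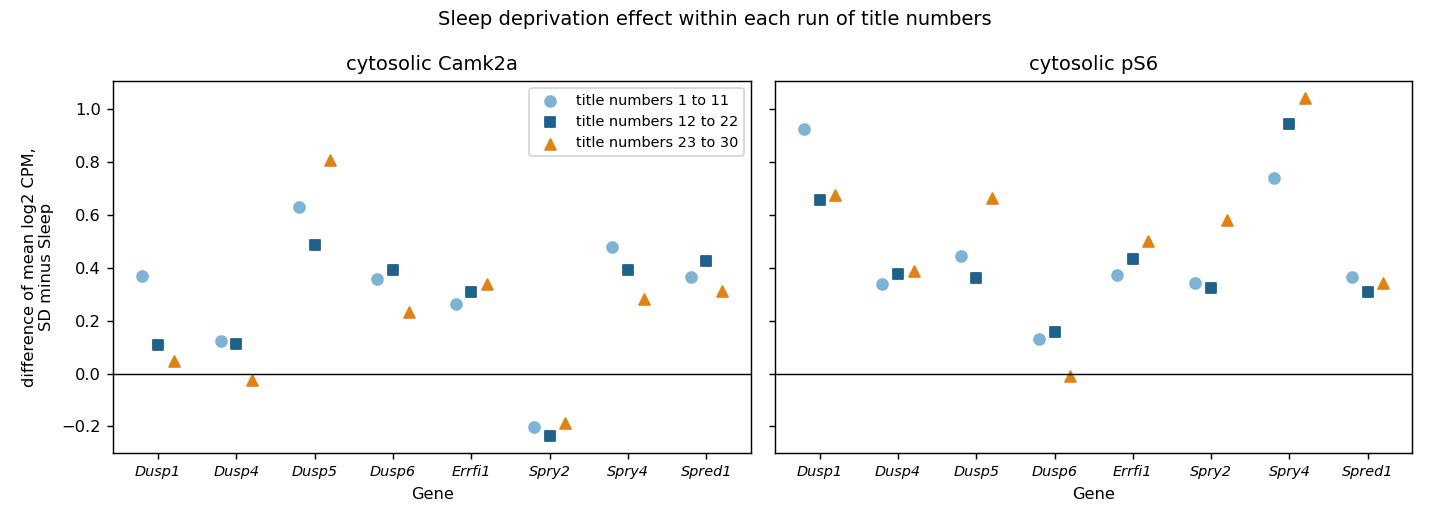
Difference of mean log2 CPM, SD minus Sleep (y axis), for each gene (x axis) within the 3 runs of title numbers (symbols) in cytosolic Camk2a (left) and cytosolic pS6 (right). Spry2 lies below 0 in all runs on the left and above 0 in all runs on the right; Dusp1 is between 0.66 and 0.93 on the right.

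Few of the inhibitors differed between CFC and NoCFC mice. Errfi1 was higher in CFC than in NoCFC mice in the 3 cytosolic types, by 0.22 ± 0.035 in Camk2a (adjusted p = 0.00391), 0.24 ± 0.050 in pS6 (0.0263) and 0.19 ± 0.039 in Input (0.0183). In each of these all 15 CFC mice were above the NoCFC median of their sleep arm. Genes that rose with training were rare in these types, at 0.128%, 0.127% and 0.169% of all tested. The Input call was lost without the filter on low counts (adjusted p = 0.0733).

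Spred1 was higher with training in the membrane captures, by 0.29 ± 0.057 in Camk2a (adjusted p = 0.000785) and 0.39 ± 0.080 in pS6 (0.000875). There 9.81% and 8.1% of all genes rose, so that 1 of 8 is near the share of all genes. Membrane pS6 values were 75.6, 99.02 and 141 CPM in NoCFC Sleep and 108, 146 and 209 CPM in CFC Sleep, then 109, 126 and 160.2 CPM in NoCFC SD and 139, 174 and 211 CPM in CFC SD. The groups overlapped in both sleep arms, and all 15 CFC mice were above the NoCFC median. In membrane Input no inhibitor passed, where 3.63% of all genes rose, and DESeq2 also called 0 of the 8. At an unadjusted p under 0.05 there were 2 of 8, against 3366 of 15642 genes, which is near the share of all genes. Spred1 was at 0.14 ± 0.055 there (adjusted p = 0.122), and without numbers 16, 22 and 30 it passed at 0.18 (adjusted p = 0.0193). Dusp4 in membrane pS6 was at 0.21 ± 0.084 (adjusted p = 0.0785), and without the 2 libraries that stand apart there it passed at 0.25 (0.0431).

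Glial markers also moved with training in the membrane captures. In membrane Camk2a 2 of 5 astrocyte, 2 of 5 oligodendrocyte and 3 of 5 microglial markers rose, and none of the 3 lists had one that fell. Astrocyte sums there were 472 to 831 CPM in NoCFC and 454 to 1276 CPM in CFC mice, and microglial sums were 98.4 to 153 and 104 to 264 CPM. In membrane pS6 1 of 5 astrocyte and 1 of 5 microglial markers rose and 1 of 5 oligodendrocyte markers fell. The astrocyte sums were 1148 to 2768 CPM in NoCFC and 1303 to 5015.5 CPM in CFC mice, and the microglial sums 227 to 360 and 266 to 425 CPM. The astrocyte medians lay closer than these ends, at 1306 CPM in NoCFC Sleep and 1529 CPM in CFC Sleep. In SD mice they were 1615 CPM without and 2015 CPM with training. Of 5 excitatory markers 2 fell in each of the captures, and no marker of any list was at 0. Among all genes 9.81% rose and 7.17% fell in membrane Camk2a, and 8.1% rose and 8.75% fell in membrane pS6. A count of 1 of 5 says little beside such shares. The part of these markers in the difference of Spred1 was not tested.

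Training coincides with the run of title numbers in mice 1 to 22. Over all genes, calls for training fell with the run as a term from 2542 to 1 in membrane Camk2a. In membrane pS6 they fell from 2803 to 12, and in membrane Input from 1022 to 0. With the run as a term no training effect on the 8 genes passed, although the values were 0.18, 0.26 and 0.18 for Errfi1 in cytosolic Camk2a, pS6 and Input and 0.29 and 0.099 for Spred1 in membrane Camk2a and pS6 (adjusted p from 0.497 to 1.0). Within numbers 23 to 30, 4 mice against 4, Errfi1 differed by 0.20, 0.27 and 0.18 in the same cytosolic types and Spred1 by 0.32 and 0.16 in the membrane captures. Training and run cannot be told apart in the other mice.

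Whether sleep deprivation had another effect after training was tested as an interaction. The interaction of training and sleep passed for 0 of 8 genes in all 6 types and for 0 genes overall. At an unadjusted p under 0.05, 0 of the 8 passed in any type, against 295 to 712 of all genes, and DESeq2 also called 0 of all genes; with the run as a term 1 gene passed, in cytosolic Input. The widest estimate was -0.25 ± 0.19, for Spry2 in membrane Input. The SE of these interaction terms was 0.071 to 0.24 over the 8 genes, which limits the size of interaction that could be seen.

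Across fractions the estimates of the inhibitors lay on the cytosolic side, but few passed as calls. Calls here needed a fold of 2 besides the adjusted p. Dusp5 was lower in the membrane fraction in all 3 captures, at -1.05 ± 0.046 in Camk2a (10.2% of all genes lower), -1.55 ± 0.044 in pS6 (9.96%) and -1.53 ± 0.055 in Input (8.97%). Dusp4 in pS6 at -1.15 ± 0.053 and Errfi1 in Input at -1.01 ± 0.039 also passed. Errfi1 in pS6 lay at the fold limit, at -0.997 ± 0.048, and passed with the title number as a block. Under relative log expression scaling or DESeq2, Dusp5 in Camk2a (-0.97 with both) and Errfi1 in Input (-0.91 and -0.92) fell short of a fold of 2. The estimates of all 8 genes in the 3 captures were below 0 with the main scaling, the nearest being Dusp6 in Camk2a at -0.043 ± 0.056, whose sign turned under the other scalings. Their median was -0.56 in Camk2a, -0.79 in pS6 and -0.67 in Input, against -0.074, -0.033 and -0.12 over all genes. In Camk2a the call of 1 of 8 genes is near the share of all genes.

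Between captures the inhibitors differed in opposite ways. Spry2 stood out in pS6: it was higher than in Camk2a by 1.27 ± 0.045 in the cytosolic fraction (22.3% of all genes were higher) and by 0.98 ± 0.055 in the membrane fraction, just under a fold of 2 (16.5% higher). Its excess over cytosolic Input was 0.99 ± 0.040, and it passed at 1.03 under both other scalings and at 1.003 without the libraries that stand apart. Dusp6 was higher in cytosolic pS6 than in Input, by 1.06 ± 0.039 (11.4% of all genes higher), and in the membrane fraction no inhibitor passed (7.23% higher; its largest value was 0.71 ± 0.061, for Spry2). Spry4 was lower in cytosolic Camk2a than in Input, at -1.17 ± 0.055 (16.5% of all genes lower), and Spred1 in the membrane fraction, at -1.16 ± 0.041 (16.8% lower). Shares of this size among all genes leave 1 of 8 near the background.

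Other genes of the pathway were read from lists of its parts. In cytosolic pS6 4.6% of all genes rose and 3.28% fell with sleep deprivation, so a list with 1 of 14 to 19 genes higher is near the share of all genes. Among 24 ERK response genes, 12 rose with sleep deprivation in cytosolic pS6 (median log2 fold change 0.36), led by Fosl2 at 0.73 ± 0.058, Fos at 1.43 ± 0.13 and Fosb at 1.16 ± 0.12, all subunits of the AP-1 transcription factor. In membrane pS6 9 of 24 rose, in cytosolic and membrane Camk2a 6 and 4 of 23, and in cytosolic and membrane Input 5 and 2 of 24; none fell. Fos was among them in all 6 types, at 0.86 ± 0.17 in cytosolic Camk2a and 0.59 ± 0.14 in membrane Input.

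Ligands of growth factor receptors rose in 5 of 20 cases in cytosolic pS6, among them Bdnf at 0.57 ± 0.055, Areg at 1.45 ± 0.32 and Hbegf at 0.45 ± 0.10. Bdnf, the ligand of the receptor encoded by Ntrk2, fell in cytosolic Camk2a with a log2 fold change of -0.17 ± 0.051, and the difference between the captures was 0.73 ± 0.076 (adjusted p = 8.33e-10). Like Spry2, it moved up in pS6 and down in Camk2a. Of 14 receptors 1 rose in cytosolic pS6, Ntrk2 at 0.32 ± 0.056, and of 19 adaptors and Ras genes 1 rose, Shc3 at 0.17 ± 0.053.

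Few of the kinases themselves passed. Among 15 genes of the Raf, MEK and ERK tier in cytosolic pS6, the scaffold gene Ksr1 rose by 0.19 ± 0.054, and those that fell included Map2k5 and Map2k1, with log2 fold changes of -0.16 ± 0.032 and -0.11 ± 0.034. In cytosolic Camk2a Ksr1 alone of the 15 passed, at 0.25 ± 0.052, and none passed in the other 4 types. Of 15 genes of the JNK and p38 branches 2 rose in cytosolic pS6, Map2k3 at 0.37 ± 0.051 and Map3k5 at 0.37 ± 0.079. Of 7 kinases downstream of ERK, Rps6ka2 and Mknk2 rose there and Rps6ka4 fell. Of 10 Ras brakes outside the 8 genes 1 fell, Rasal1, at -0.21 ± 0.043.

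The other phosphatases and Sprouty relatives did not follow as a block. In cytosolic pS6 4 of 17 other Dusp genes rose, led by Dusp14 at 0.28 ± 0.046 and Dusp10 at 0.40 ± 0.075, and 2 fell, Dusp15 and Dusp11, for a median of -0.033. None of them passed in the other 5 types. Of 4 Sprouty and Spred relatives, Spred2 rose in cytosolic pS6 by 0.15 ± 0.032, and Spry3 and Spry1 rose in cytosolic Camk2a by 0.24 ± 0.064 and 0.22 ± 0.069. Spred3 is counted both here and among the response genes.

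As a description over 180 libraries, with the mean of each library type removed, the gene with the most similar log2 CPM among 9564 was Fos for Dusp1 (Pearson r = 0.78) and for Spry4 (0.65), Egr1 for Dusp4 (0.61), Nr4a1 for Dusp5 (0.76) and Rasd1 for Dusp6 (0.72). It was Gpt2 for Errfi1 (0.77), Zfp91 for Spry2 (0.56) and Eif4g2 for Spred1 (0.83). The second nearest were Ier2 for Dusp1 (0.73), Irs2 for Dusp5 (0.75), Bhlhe40 for Dusp6 (0.72), Rasd1 for Dusp4 (0.57), Lurap1l for Errfi1 (0.75), Spred2 for Spry2 (0.51), Nr4a1 for Spry4 (0.64) and Lrrc58 for Spred1 (0.83). Among the 8 genes the highest pair was Dusp5 with Errfi1 (0.63) and then Dusp5 with Spry4 (0.62). Spry2 had the lowest values, from -0.099 with Dusp6 to 0.21 with Dusp4. These points share mice, fractions and the difference between Sleep and SD, and the 6 libraries of a mouse are not independent.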

How the data were processed

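The 180 libraries, 6 types from 30 mice, were prepared with the SMART-seq v4 kit, as the labels' protocols state. The deposited table holds whole-number counts per gene that the authors did not normalize; STAR 2.6.1a, featureCounts, MultiQC 1.6a0 and GRCm38.p6 are named in the submitters' processing notes, and strand and other settings are not given in the sources used here. Depth was 12 to 27 M (mega-counts); SMART-seq reads carry no molecular identifiers, so the counts are not independent molecules. Symbols were matched to GENCODE vM21 (98.8% of 54429).

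Counts were tested with edgeR 4.0.16 (R 4.3.3): filterByExpr, TMM scaling, robust quasi-likelihood F-test and Benjamini-Hochberg adjustment over all genes at 0.05. Each library type was fitted with its 4 groups. Fraction and capture comparisons, and differences of the sleep effect between them, fitted 2 types together, with no block for the mouse in the main fit. Levels also needed a fold of 2. CPM values use TMM factors over all libraries and a prior count of 2 where logged. The SE is the log2 fold change divided by the root of F, and an interval is the normal one from it. Alternatives were DESeq2 1.42.0, relative log expression scaling, no filter, the run of title numbers as a term, the title number as a block and, chosen after seeing the data, leaving out libraries that stand apart.

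The protocol divides each fraction of a homogenate into Input and both captures, so title numbers were taken as mice. After group means were removed, 391 of 450 pairs of the same number correlated above 0.1 (median 0.28, against -0.050 for different numbers). No 2 libraries of a group were copies (lowest chi-square per degree of freedom 3.01). On simulated data for the sleep effect in cytosolic pS6 (16485 genes), 71 of 100 changes of 0.5 on the log2 scale were recovered. Of changes of 1, 94 of 100 were recovered, with 7 false among 172 calls. Fewer were recovered for the difference of this effect between cytosolic pS6 and Camk2a (16730 genes). There it was 55 of 100 changes of 0.5 and 82 of 100 of 1, with 4 false among 141 calls. The members, lists and tests were chosen with earlier results of these data known. The 8 genes are always named; from a list, at most the 3 with the smallest p each way, and per gene the 2 most correlated genes. One gene of these lists is not reported here.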

Additional observations from a re-analysis of the deposited data

Results flagged for a closer look

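In 12 of 192 groups of libraries, 1 library lay far from the others of its group by Dixon's criterion, which chance meets in about 1 in 20 groups. Dusp1 gave 4 of these, all the NoCFC Sleep mouse with title number 1, whose level was the highest of its group: 45.9 CPM in cytosolic pS6 (next 31.3), 28.5 CPM in membrane Camk2a (21.1), 33.5 CPM in cytosolic Input (26.9) and 26.5 CPM in membrane Input (18.4). Dusp5 was lowest at 72.1 CPM in NoCFC SD number 7 in cytosolic pS6 and highest at 46.5 CPM in CFC SD number 30 in membrane pS6. Errfi1 was lowest at 21.5 CPM in CFC Sleep number 12 in membrane pS6 and highest at 80.0 CPM in CFC SD number 30 in cytosolic Input. Spry2 was lowest at 7.21 CPM in CFC Sleep number 16 in membrane Input and highest at 30.6 CPM in CFC SD number 19 in membrane pS6. Spred1 was lowest at 88.3 CPM in CFC Sleep number 17 in cytosolic Camk2a and at 132 CPM in CFC SD number 22 in membrane Input. Numbers 12 and 19 in membrane pS6 and 16 and 22 in membrane Input are among the libraries that stand apart.

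The effect of sleep deprivation differed between library types in 9 of 72 tests, which share mice and libraries and so are not independent. Between cytosolic pS6 and Input the differences were 0.67 for Dusp1, 0.56 for Spry4, 0.54 for Spry2 and 0.31 for Dusp4 on the log2 scale. The call for Dusp4 was lost under another scaling, without the filter and without the libraries that stand apart. Of all genes 0.508% had a more positive change in this comparison. Between cytosolic pS6 and Camk2a the differences were 0.63 for Spry2, 0.59 for Dusp1 and 0.52 for Spry4 (0.365% of all genes). In the membrane fraction Spry2 differed by 0.66 between pS6 and Input (0.0994%) and by 0.53 between pS6 and Camk2a (0.053%).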

How the results depend on the processing

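No called result changed sign. Among values that did not pass, the sign of Dusp6 turned under other scalings in membrane against cytosolic Camk2a and in membrane pS6 against Camk2a, as did 3 interaction terms, and signs of other values that did not pass turned under other settings. Counts of the 8 genes past the threshold that moved by more than 1.5 times were these, and others moved by at most 1 gene. With the run of title numbers as a term, the training effect fell from 1 gene to 0 in the 5 library types that had one. The training effect in cytosolic Input also fell to 0 without the filter on low counts. Without the libraries that stand apart, the training count became 2 in membrane pS6 and 1 in membrane Input. Membrane against cytosolic Camk2a fell from 1 to 0 under relative log expression scaling and under DESeq2, and membrane against cytosolic Input from 2 to 1 under both and without the filter. Cytosolic pS6 against Input rose from 1 to 2 under relative log expression scaling, under DESeq2 and without the libraries that stand apart. Membrane pS6 against Camk2a rose from 0 to 1 under relative log expression scaling and under DESeq2. With the replicate block by title number, the sleep effect difference between cytosolic pS6 and Camk2a rose from 3 genes to 5, and the block moved no other of its 18 counts by more than 1.5 times, though Errfi1 joined in 2 of them (from 4 genes to 5 and from 2 to 3). Over all 16730 genes tested for that pS6 and Camk2a difference, calls rose from 98 to 392 with the block. The cause of these changes was not tested, except that fold limits decide the fraction and capture counts. No count for the sleep effect within a library type moved by more than 1.5 times. Depth bears most on Spry4, whose lowest count was 66.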
